A study of Mus musculus with 12 samples.

Results

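The genes described here encode the machinery of oxidative phosphorylation in the mouse ventral hippocampus. They were chosen by symbol, with earlier results of these data known. The rule took protein-coding genes starting with mt-, Nduf, Sdha, Sdhb, Sdhc, Sdhd, Uqcr, Cox4i, Cox5, Cox6, Cox7, Cox8 or Atp5. Of 111 annotated genes that fit, 108 are among the 13951 genes of the expression table, and all 108 passed the filter on low values. The mitochondrial genome encodes 13 of them and the nuclear genome 95. The nuclear genes comprise 81 structural subunits, 12 assembly factors, the supercomplex factor Cox7a2l and the coupling factor B gene Atp5s. Complex I has 51 of the 108 genes, complex II 8, complex III 9, complex IV 22 and complex V 18. Cox8c, Atp5g2 and a further gene model of Atp5o were not analysed here.

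Polyadenylated RNA was taken from ventral tissue of the right hippocampus in 12 C57BL/6J mice aged 12 to 16 weeks, with 1 library per mouse. The study compared Angelman syndrome (AS) mice with wild-type (WT) mice in both sexes. The 4 groups were WT females, AS females, WT males and AS males, with 3 mice each. In people, Angelman syndrome arises when neurons lack the ubiquitin ligase UBE3A, which they make from the maternal gene copy only. The labels do not give the mutation of the AS mice. They name no litter, batch or treatment, so p-values measure the spread between these mice.

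Oxidative phosphorylation passes electrons from NADH and succinate along complexes I to IV of the inner mitochondrial membrane to oxygen. Complexes I, III and IV pump protons as they do so, and complex V, the ATP synthase, uses the returning protons to make ATP. Mitochondrial DNA encodes the core membrane subunits of complexes I, III, IV and V, whereas every subunit of complex II and all accessory subunits are nuclear. The 2 sets are transcribed by different polymerases and meet only in the assembled complexes. Neurons depend on this pathway for the ATP that ion pumping at synapses consumes.

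Levels are given as log2(abundance + 1), where the abundance was read as an RSEM estimate scaled to transcript length. The unit is not given, and comparisons of level between different genes rest on that reading. Differences are differences of these logs with their standard error (SE) from a limma model over all 13858 genes tested. They understate the change of genes near 0. Bulk RNA cannot tell fewer cells of a type from less RNA per cell. WT female replicate 1 had Xist, the RNA that coats the inactive X chromosome, at 0.35, against 6.00 to 6.45 in the other female libraries and at most 0.52 in males. Ube3a transcripts lay between 3.78 and 4.34 in all libraries, and AS differed from WT by -0.12 ± 0.13 in females and -0.05 ± 0.13 in males (SE, limma). These transcripts do not check the genotype labels, since the mutation is not given. The mean of 15 choroid plexus marker genes, which mark the epithelium that secretes cerebrospinal fluid, was 5.50, 5.30, 4.55 and 3.28 in WT female replicate 2, AS female replicate 2, WT female replicate 1 and AS male replicate 2. In the other 8 libraries it lay between 1.48 and 2.02.

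The mitochondrial genome supplied most of the oxidative phosphorylation transcripts. Its 13 genes held 18.4% of the summed abundance of the table, and the 95 nuclear genes 2.85%. The log base of the table is not given, and these shares and all abundance ratios below assume base e. In base 2 the shares would be 5.14% and 2.39%. The median level over the 12 libraries was 12.53 for the mitochondrial genes and 7.15 for the 81 nuclear subunits, against 3.77 for all genes tested. Every mitochondrial gene lay above every nuclear one: the lowest, mt-Nd5 at 11.44, exceeded the highest nuclear gene, Atp5b at 9.55. The mitochondrial genes took ranks 1 to 10, 12, 14 and 16 among all genes in the table.

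**Figure D1:**
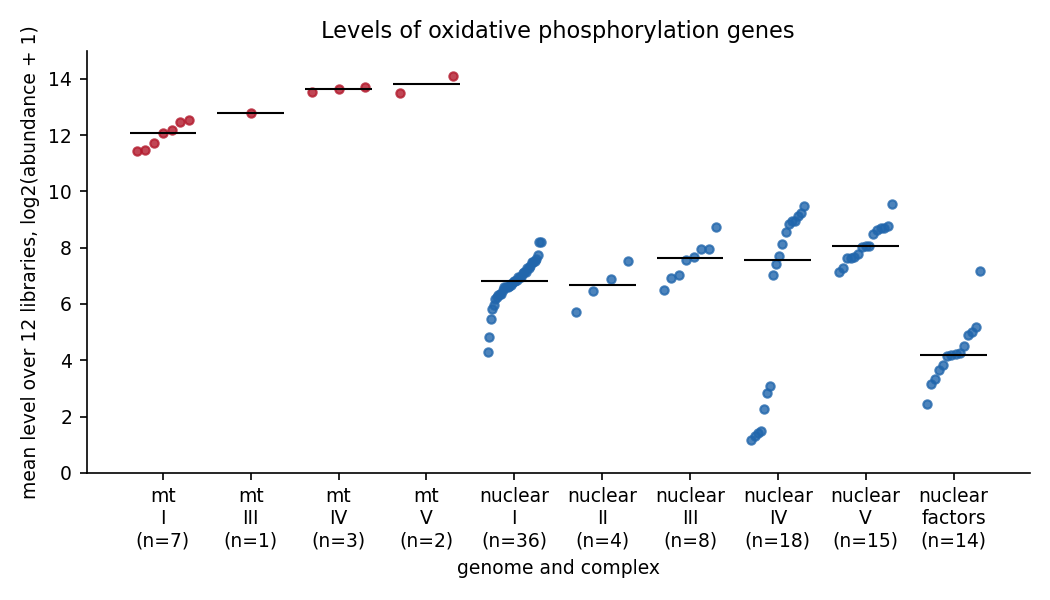
Mean level over 12 libraries, on the log2(abundance + 1) scale, of each of the 108 genes, by genome and complex; "factors" are the 12 assembly factors with Cox7a2l and Atp5s. Points are genes and bars are class medians; the 13 mitochondrial genes lie between 11.44 and 14.12, above all 95 nuclear genes, and 7 complex IV genes lie near the bottom, at 3.07 or below.

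Within the mitochondrial genome, levels in the polyadenylated RNA were ordered by complex. Whether capture of polyadenylated RNA differed between these transcripts was not tested. The genes of complexes V and IV came first, then mt-Cytb of complex III, then the 7 genes of complex I. The class medians were 13.81 for complex V, 13.63 for complex IV and 12.06 for complex I. The abundance of mt-Atp8, the highest gene in the table, was 6.47 times that of mt-Nd5 (3.65 times if the base were 2). Neighbours such as mt-Co3 (13.52) and mt-Atp6 (13.51), mt-Nd1 (12.53) and mt-Nd4 (12.47), or mt-Nd4l (11.46) and mt-Nd5 (11.44) differed by less than their spread within groups, which was 0.14 to 0.18.

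Several of these genes overlap, which bears on how reads could be shared out between them. On the GRCm38 mitochondrial chromosome (M), mt-Atp8 runs from 7766 to 7969 and mt-Atp6 from 7927 to 8607, both on the plus strand. They share 43 bases and are carried by 1 transcript. The shared stretch is printed because the 2 complex V genes in it cannot be told apart, with the start codon of mt-Atp6 and the stop codon of mt-Atp8 in capitals.
mt-Atp8 and mt-Atp6 overlap: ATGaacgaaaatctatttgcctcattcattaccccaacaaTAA
The genes mt-Nd4l and mt-Nd4 share 7 bases, and mt-Atp6 and mt-Co3 share 1. The mt-Nd5 and mt-Nd6 genes share 14 bases on opposite strands, and mt-Nd6 is the only one of the 13 on the minus strand. Whether strand was used in the counting is not stated, so reads antisense to the plus-strand genes could be part of the mt-Nd6 value. The mt-Atp8 gene spans 204 bases, so its level per length rests on few positions.

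Among nuclear subunits, complex V had the highest median level (8.05), followed by complex III (7.62), complex IV (7.56), complex I (6.83) and complex II (6.67). Complex IV stood there because its 18 genes include 7 low isoforms, described below, and the median of the other 11 was 8.84. Atp5b encodes the catalytic beta subunit of ATP synthase and was at 9.48, 9.61 and 9.52 in WT females, 9.57, 9.53 and 9.54 in AS females, 9.66, 9.62 and 9.40 in WT males, and 9.60, 9.48 and 9.60 in AS males. Atp5h, a subunit of the stator stalk, was at 8.83, 8.74 and 8.87 in WT females, 8.75, 8.83 and 8.65 in AS females, 8.82, 8.66 and 8.71 in WT males, and 8.77, 8.76 and 8.76 in AS males. Neither gene had a library that stood apart, and their SD within groups was 0.09 and 0.07.

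In complex IV, cytochrome c oxidase, Cox8a led. Its levels were 9.55, 9.52 and 9.48 in WT females, 9.53, 9.37 and 9.46 in AS females, 9.70, 9.57 and 9.43 in WT males, and 9.51, 9.19 and 9.66 in AS males. Ndufa4, named for complex I but now placed in complex IV, was at 9.21, 9.34 and 9.37 in WT females, 9.38, 9.18 and 9.09 in AS females, 9.30, 9.20 and 9.17 in WT males, and 9.13, 9.15 and 9.28 in AS males. The Cox8a values of both genotypes overlapped in each sex, with the lowest of all in AS male replicate 2.

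In complex III, Uqcrh, the hinge protein that helps cytochrome c dock, was at 8.80, 8.83 and 8.95 in WT females, 8.84, 8.61 and 8.56 in AS females, 8.85, 8.75 and 8.59 in WT males, and 8.69, 8.54 and 8.73 in AS males. Uqcrb, which lies at the ubiquinone-binding site, was at 7.98, 8.08 and 8.14 in WT females, 8.06, 7.87 and 7.76 in AS females, 7.84, 7.87 and 7.86 in WT males, and 7.81, 8.13 and 7.89 in AS males. Uqcrh was at 8.80 or above in 3 of 3 WT females and in 1 of 3 AS females.

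Complex I and complex II subunits were lower. The accessory subunit Ndufb9 had levels of 8.29, 8.19 and 8.16 in WT females, 8.27, 8.09 and 8.16 in AS females, 8.35, 8.20 and 8.10 in WT males, and 8.16, 8.13 and 8.30 in AS males. Ndufa3, another accessory subunit, was at 8.24, 8.23 and 8.32 in WT females, 8.16, 8.09 and 8.18 in AS females, 8.25, 8.14 and 8.03 in WT males, and 8.32, 8.00 and 8.29 in AS males. In complex II, which is also the succinate dehydrogenase of the tricarboxylic acid cycle, the flavoprotein subunit gene Sdha was at 7.50, 7.51 and 7.62 in WT females, 7.58, 7.54 and 7.46 in AS females, 7.47, 7.52 and 7.52 in WT males, and 7.59, 7.57 and 7.51 in AS males. The iron-sulfur subunit gene Sdhb was at 6.83, 6.83 and 6.96 in WT females, 6.96, 6.94 and 6.80 in AS females, 6.90, 6.83 and 6.80 in WT males, and 6.92, 6.68 and 7.04 in AS males. Sdha was among the steadiest of these genes, with an SD within groups of 0.05.

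The assembly factors, which help build complexes I and II but do not stay in them, were the lowest class by median, with Sdhaf4 the highest of 12 genes at 5.20 and Sdhaf3 the lowest at 2.44. Ndufb4, a complex I subunit at 4.84, stood low beside the processed pseudogene Ndufb4c, whose mean abundance was 6.51 times higher (182 against 27.9; 3.87 times in base 2). Reads of the pair could have been divided either way, so the level of Ndufb4 is uncertain.

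Minor isoforms of complex IV subunits made up the 7 lowest complex IV genes. The ubiquitous isoform exceeded its counterpart in mean abundance 322 times for Cox4i1 over Cox4i2, known from lung, 60.4 times for Cox6a1 over Cox6a2 and 50.9 times for Cox7a2 over Cox7a1, the latter 2 being heart and muscle isoforms. The ratio was 255 for Cox8a over the heart isoform Cox8b. It was 76.2 for Cox6b1 over the testis isoform Cox6b2 and 122 (121.5) for Cox7b over Cox7b2. For Ndufa4 over Ndufa4l2, a paralogue induced by hypoxia, it was 391. In ATP synthase, by contrast, Atp5g3 and Atp5g1, which encode the same mature c-ring protein with different import sequences, differed by 2.07 times. In base 2 the 7 ratios of complex IV would be 19.3 to 92.7 and that of Atp5g3 1.67. Levels of Cox4i2, Cox7b2, Cox8b and Ndufa4l2 averaged below 1.5, where adding 1 before the log shrinks differences.

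Nuclear oxidative phosphorylation genes are known targets of nuclear respiratory factor 1 (NRF1), ETS factors such as GABPA, YY1 and the oestrogen-related receptor ERR alpha. Of the 95 nuclear genes, 79 had a promoter in RefSeq (GRCm38.p6), 84 promoters in all, each spanning 250 bases before to 50 after the transcript start. The letters GCGCATGC, read on both strands for NRF1, were in 13.1% of these promoters (11 of 84), against 2.71% of all 32851 promoters of the same length. The ETS letters CCGGAAG were in 25% (21 of 84) against 8.86%, and the YY1 letters AAGATGGCG in 9.52% (8 of 84) against 1.40%. The ERR alpha letters TCAAGGTCA were in 2.38%, only 2 of 84 promoters, against 0.423%. All were read on both strands and counted for each factor whether or not they overlapped the match of another. These are matches of letters, not measured binding sites.

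Windows around the NRF1 letters are shown for 1 gene each of complexes I, II, IV and V, to let the matches be compared in genes whose levels are given here, with the letters in capitals and 30 bases on each side. All 4 windows lie upstream of the RefSeq start, and the capitals of Cox6a1 and Atp5k cover matches on both strands that overlap. In the GENCODE annotation Sdhb starts at 140961203 and Atp5k at 108434448. By those starts, the windows of Sdhb and Atp5k reach into the gene, with all or most of their capitals.
Ndufa6 (complex I, chr15:82354337-82354404, minus strand): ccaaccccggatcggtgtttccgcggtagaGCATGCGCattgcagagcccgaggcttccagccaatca
Sdhb (complex II, chr4:140961187-140961254, plus strand): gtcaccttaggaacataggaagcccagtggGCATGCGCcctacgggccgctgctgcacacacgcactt
Cox6a1 (complex IV, chr5:115349081-115349150, minus strand): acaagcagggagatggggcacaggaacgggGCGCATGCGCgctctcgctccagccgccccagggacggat
Atp5k (complex V, chr5:108434410-108434479, minus strand): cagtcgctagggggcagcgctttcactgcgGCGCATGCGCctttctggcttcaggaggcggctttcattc
The 4 genes differed in level, at 7.27, 6.87, 8.84 and 8.71, and none passed a test in any comparison below.

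Mitochondrial transcripts varied between libraries of the same group more than nuclear ones. Within groups, the library mean over the 13 mitochondrial genes had an SD of 0.16, against 0.069 for the 81 nuclear subunits. AS male replicate 2 carried much of this: without it the SDs were 0.092 and 0.057. These means cover unlike numbers of genes, which also affects their SD. For single genes the median SD within groups was 0.17 in the mitochondrial genes, 0.11 in the nuclear subunits and 0.14 in all genes tested. The contrast also spans parts of the table that were scaled differently. All 13 mitochondrial genes had mean deposited values of 6 or more, where 0% of the first library's values recur in all columns. Of the nuclear genes, 48 lay at 2 to 5, where 100% recur, 29 at 5 to 6 and 11 at 6 or more. The part of normalization in the contrast was not tested. The mitochondrial share of the table was 18.1%, 19.5% and 18.8% in WT females, 19.1%, 21.5% and 17.5% in AS females, 17.5%, 17.2% and 17.7% in WT males, and 15.6%, 21.6% and 16.5% in AS males. The AS male group thus held both the highest and the lowest library, and the SD of the share was 3.23 percentage points there against 0.239 in WT males (n = 3 each). Without AS male replicate 2 it was 0.635 points in the 2 remaining AS males.

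**Figure D2:**
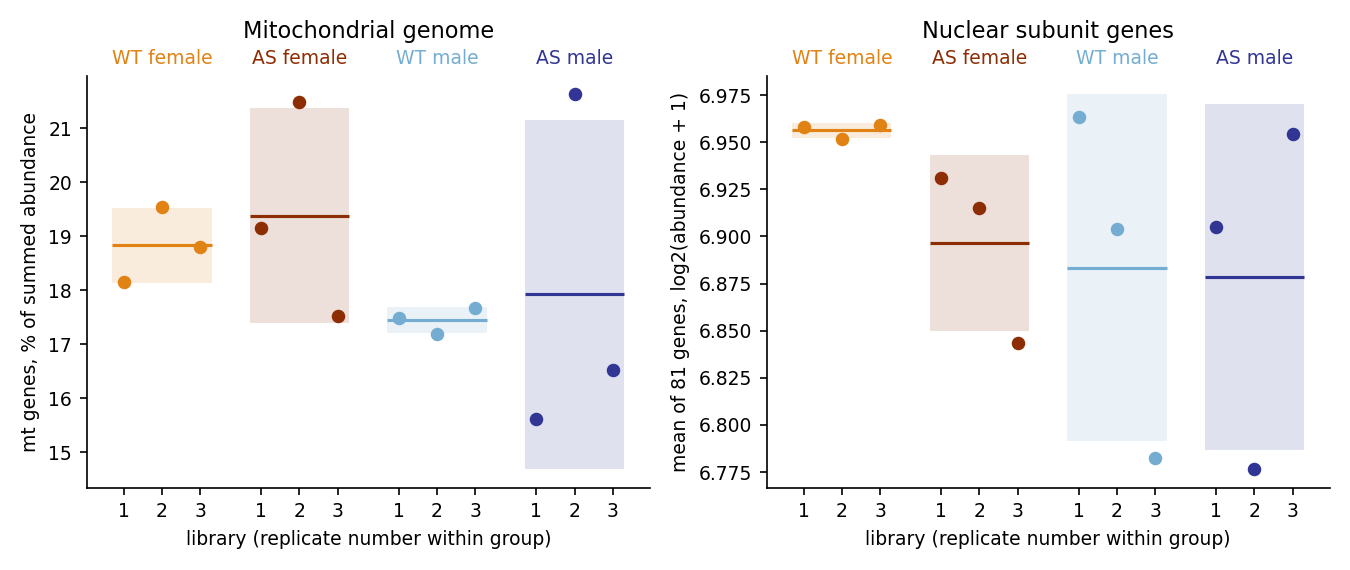
Left, share of the summed abundance taken by the 13 mitochondrial genes in each library, in percent; right, mean level of the 81 nuclear subunit genes, on the log2(abundance + 1) scale. Points are libraries, lines group means and bands 1 SD (n = 3); the mitochondrial share runs from 15.6% to 21.6%, both in AS males.

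The 13 mitochondrial genes moved together. In AS male replicate 2, AS female replicates 1 and 2 and WT female replicate 2, 13 of 13 were above their own mean over the 12 libraries. In AS male replicates 1 and 3, AS female replicate 3 and WT male replicates 1 and 2, 0 of 13 were. AS male replicate 2 had the lowest quality weight of the 12 libraries in limma (0.319), and the choroid plexus marker mean in it was 3.28. Their part in the mitochondrial values was not tested.

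The core subunit genes of complex IV followed this pattern. The catalytic subunit gene mt-Co1 was at 13.60, 13.71 and 13.65 in WT females, 13.72, 14.02 and 13.55 in AS females, 13.56, 13.55 and 13.46 in WT males, and 13.40, 13.84 and 13.47 in AS males. Its partner mt-Co2, which binds cytochrome c, was at 13.67, 13.79 and 13.74 in WT females, 13.76, 14.05 and 13.62 in AS females, 13.63, 13.58 and 13.56 in WT males, and 13.47, 13.94 and 13.55 in AS males. For mt-Co3, the other core subunit, the levels were 13.49, 13.64 and 13.61 in WT females, 13.62, 13.81 and 13.41 in AS females, 13.46, 13.39 and 13.42 in WT males, and 13.27, 13.69 and 13.40 in AS males. In all 3 genes AS female replicate 2 was the highest library and AS male replicate 1 the lowest.

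The proton-channel subunit of ATP synthase, mt-Atp6, was at 13.49, 13.62 and 13.58 in WT females, 13.61, 13.81 and 13.40 in AS females, 13.42, 13.43 and 13.37 in WT males, and 13.25, 13.80 and 13.33 in AS males. The small membrane subunit mt-Atp8 was at 14.09, 14.26 and 14.19 in WT females, 14.23, 14.54 and 13.98 in AS females, 14.02, 13.99 and 14.00 in WT males, and 13.76, 14.43 and 13.91 in AS males. Cytochrome b of complex III, mt-Cytb, was at 12.77, 12.86 and 12.85 in WT females, 12.86, 13.00 and 12.72 in AS females, 12.76, 12.67 and 12.72 in WT males, and 12.56, 12.98 and 12.65 in AS males. For these genes, too, AS female replicate 2 and AS male replicate 2 were the 2 highest libraries.

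Among complex I genes, which encode the proton-pumping membrane arm, mt-Nd1 was at 12.52, 12.67 and 12.58 in WT females, 12.60, 12.63 and 12.44 in AS females, 12.44, 12.45 and 12.51 in WT males, and 12.25, 12.79 and 12.41 in AS males. Next in level, mt-Nd4 was at 12.47, 12.56 and 12.54 in WT females, 12.57, 12.58 and 12.42 in AS females, 12.43, 12.33 and 12.42 in WT males, and 12.24, 12.74 and 12.35 in AS males. The levels of mt-Nd2 were 12.17, 12.35 and 12.25 in WT females, 12.20, 12.29 and 12.11 in AS females, 12.11, 12.07 and 12.18 in WT males, and 11.85, 12.46 and 11.97 in AS males. AS male replicate 2 was the highest library in all 3, and AS female replicate 2 stood much closer to the other females than in complexes IV and V.

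The remaining complex I genes showed the same order. The gene mt-Nd3 was at 12.06, 12.23 and 12.18 in WT females, 12.20, 12.20 and 11.93 in AS females, 11.95, 11.89 and 12.00 in WT males, and 11.74, 12.46 and 11.90 in AS males, and mt-Nd4l was at 11.49, 11.56 and 11.54 in WT females, 11.55, 11.63 and 11.42 in AS females, 11.42, 11.32 and 11.39 in WT males, and 11.16, 11.70 and 11.31 in AS males. The levels of mt-Nd5 were 11.41, 11.56 and 11.39 in WT females, 11.52, 11.54 and 11.38 in AS females, 11.41, 11.40 and 11.40 in WT males, and 11.20, 11.70 and 11.30 in AS males. Minus-strand mt-Nd6 was at 11.62, 11.80 and 11.66 in WT females, 11.78, 11.76 and 11.68 in AS females, 11.67, 11.68 and 11.68 in WT males, and 11.47, 12.08 and 11.58 in AS males. For all 4 genes AS male replicate 2 was highest and AS male replicate 1 lowest.

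AS female replicate 2 differed from the other high library in how its excess was shared among complexes. Its median deviation from the gene means was 0.35 for the complex IV genes, 0.36 for complex V, 0.22 for mt-Cytb and 0.11 for complex I. In AS male replicate 2 the corresponding values were 0.21, 0.30, 0.19 and 0.27. The mean of the 5 complex IV and V genes exceeded that of the 7 complex I genes by 1.96 in AS female replicate 2, against 1.63 to 1.73 in the other 11 libraries. This is 1 library, so no test applies.

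**Figure D3:**
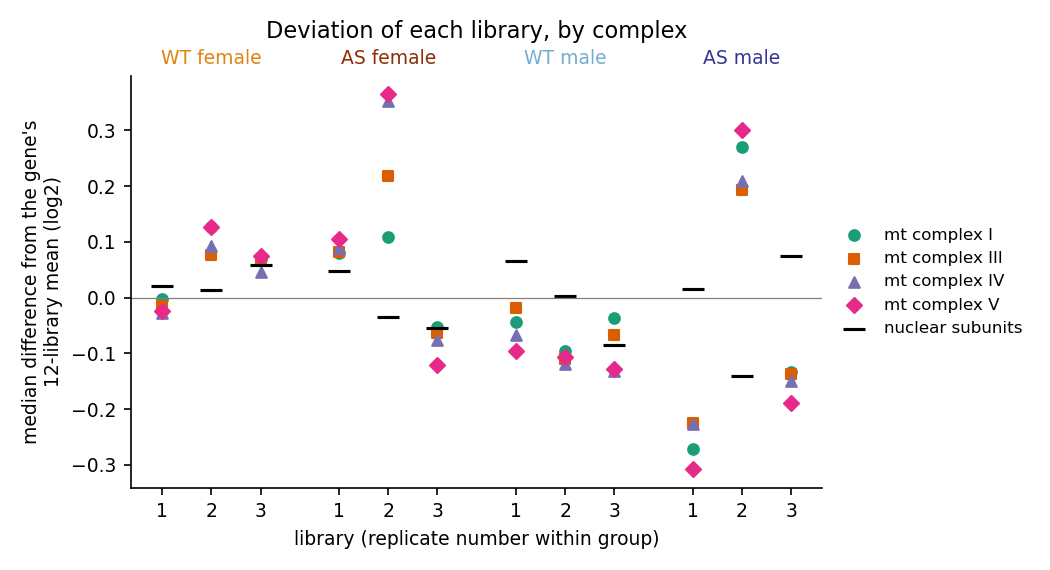
Median deviation of each library from the genes' 12-library means (log2), for mitochondrial genes by complex and for the 81 nuclear subunits, by group and replicate. In AS male replicate 2 all mitochondrial complexes lie at 0.19 or above while the nuclear subunits lie at -0.14, and in AS female replicate 2 complexes IV and V lie above complex I.

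The nuclear subunits did not follow the mitochondrial genes in every library. Their mean level was 6.96, 6.95 and 6.96 in WT females, 6.93, 6.92 and 6.84 in AS females, 6.96, 6.90 and 6.78 in WT males, and 6.90, 6.78 and 6.95 in AS males. Of the 81 subunits, 16 were above their own mean in AS male replicate 2 and 6 in WT male replicate 3, against 62 to 64 in WT female replicate 3, WT male replicate 1 and AS male replicate 3. The difference between the mitochondrial mean and the nuclear subunit mean ran from 5.53 in AS male replicate 1 to 6.19 in AS male replicate 2. Median deviations of nuclear subunits and mitochondrial genes shared a sign in WT female replicates 2 and 3 and AS female replicates 1 and 3. They also did so in WT male replicate 3, and had opposite signs in the other libraries.

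Short genes in general shifted in the same libraries. Of the 81 subunits, 49 have a longest annotated transcript under 1 kb, a class that holds 646 of all genes tested. The median deviation of all genes in that class was -0.11 in AS male replicate 2, -0.07 in WT male replicate 3 and 0.08 in WT female replicate 3 and in WT male replicate 1. The 49 subunits of that length were at -0.15, -0.10, 0.09 and 0.10 in these libraries, and all 81 subunits at -0.14, -0.08, 0.06 and 0.07. Among all genes of 2 to 4 kb the median deviation was -0.02 in AS male replicate 2 and -0.01 in WT male replicate 3, whereas the 7 subunits of that length were at -0.11 and -0.05. In AS female replicate 2 the 7 subunits lay above genes of their length, at 0.05 against -0.02, and in AS male replicate 3 both were at 0.02. Among genes of 1 to 2 kb the median was -0.07 in AS male replicate 2 and -0.04 in WT male replicate 3. The subunits of 1 to 2 kb were at -0.08 in both. For genes over 4 kb the median deviation was 0.03 in AS male replicate 2. The part of length in the nuclear values was not tested.

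In females, no oxidative phosphorylation gene passed the test between genotypes. With limma, 0 of 108 had an adjusted p under 0.05, against 0% of all 13858 genes. At an unadjusted p under 0.05, 0 genes were higher in AS and 2 lower, against 1.49% and 1.67% of all genes. AS and WT females did not overlap for 1 gene that was higher and 5 that were lower, where 4.99% and 4.02% of all genes did so. For 102 of the 108 genes (94.4%) the 95% interval lay within 1.5-fold of abundance + 1 in either direction, against 84.1% of all genes.

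The genomes leaned in opposite directions in females, by small amounts. Of the 13 mitochondrial genes 10 were higher in AS, with a median log2 difference of 0.04, and of the 95 nuclear genes 25 were, with a median of -0.04, against 7157 of 13858 genes and a median of 0.005 overall. The mitochondrial direction rested on AS female replicate 2: without it 1 of 13 was higher and the median was -0.05. Without the 4 libraries highest in choroid plexus markers it was -0.06 (2 of 13 higher). That fit set WT female replicate 3 alone against AS female replicates 1 and 3. With quantile normalization applied again, which fixes the top of the table by rank, 1 of 13 was higher and the median was at 0. The nuclear median stayed below 0 in all 19 alternatives, from -0.07 to -0.02. Without WT female replicate 1, the library with low Xist, 7 of 13 mitochondrial genes were higher (median 0.0046) and 24 of 95 nuclear genes (median -0.05).

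Among nuclear complexes the medians in females were -0.03 for complex I (9 of 36 higher), 0.0046 for complex II (2 of 4), -0.01 for complex III (4 of 8), -0.08 for complex IV (3 of 18) and -0.05 for complex V (2 of 15). Atp5b, the highest of complex V, differed by 0.01 ± 0.07 and Cox8a by -0.06 ± 0.11. Of the 20 genes of the tricarboxylic acid cycle and pyruvate dehydrogenase, 3 were higher and 17 lower in AS females, with 0 called and 0 at an unadjusted p under 0.05 (limma).

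The complex I genes with the smallest p in females did not pass. Ndufc2 (ENSMUSG00000030647, chromosome 7, 97400003 to 97407802, plus strand), an accessory subunit of the membrane arm, was at 7.00, 6.99 and 7.18 in WT females against 6.93, 6.87 and 6.71 in AS females. It was lower in every AS female, with a difference of -0.22 ± 0.08 and a 95% interval of -0.39 to -0.05 (limma, unadjusted p = 0.0166, adjusted p = 1.00). In males its difference had the other sign, 0.11 ± 0.08. The assembly factor gene Ndufaf4 (ENSMUSG00000028261, chromosome 4, 24898083 to 24905001, plus strand) was at 4.42, 4.50 and 4.42 in WT females against 4.36, 4.20 and 4.06 in AS females, a difference of -0.24 ± 0.10 (limma, unadjusted p = 0.0264, adjusted p = 1.00). In males Ndufaf4 differed by -0.03 ± 0.10.

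Ndufa1 and Ndufa3, both accessory subunits, and the muscle isoform Cox6a2 were the other genes lower in AS females without overlap. Ndufa1 was at 7.53, 7.46 and 7.45 in WT females against 7.41, 7.37 and 7.22 in AS females. The differences were -0.14 ± 0.08 for Ndufa1 and -0.12 ± 0.09 for Ndufa3. Only the complex I subunit gene Ndufa8 was higher without overlap, at 6.54, 6.48 and 6.56 in WT females against 6.57, 6.61 and 6.62 in AS females, a difference of 0.08 ± 0.08. The gap between the Ndufa8 groups was thus 0.01, well inside its error.

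The genes with the smallest p on the higher side in females were Ndufb4 at 0.23 ± 0.11, the small complex III subunit gene Uqcrq at 0.13 ± 0.08 and the assembly factor gene Ndufaf6 at 0.13 ± 0.13. Uqcrq was at 6.75, 6.87 and 6.93 in WT females, 6.97, 6.92 and 7.07 in AS females, 7.01, 7.15 and 6.83 in WT males, and 6.85, 6.93 and 6.93 in AS males. Ndufaf6 was at 3.19, 2.78 and 3.18 in WT females, 2.93, 3.37 and 3.23 in AS females, 3.37, 3.24 and 3.30 in WT males, and 3.16, 3.15 and 3.06 in AS males. For Uqcrq and Ndufaf6 the male differences had the other sign, at -0.10 ± 0.08 and -0.18 ± 0.13. Uqcrh, on the lower side, was at -0.19 ± 0.09 in females and -0.08 ± 0.09 in males.

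**Figure D4:**
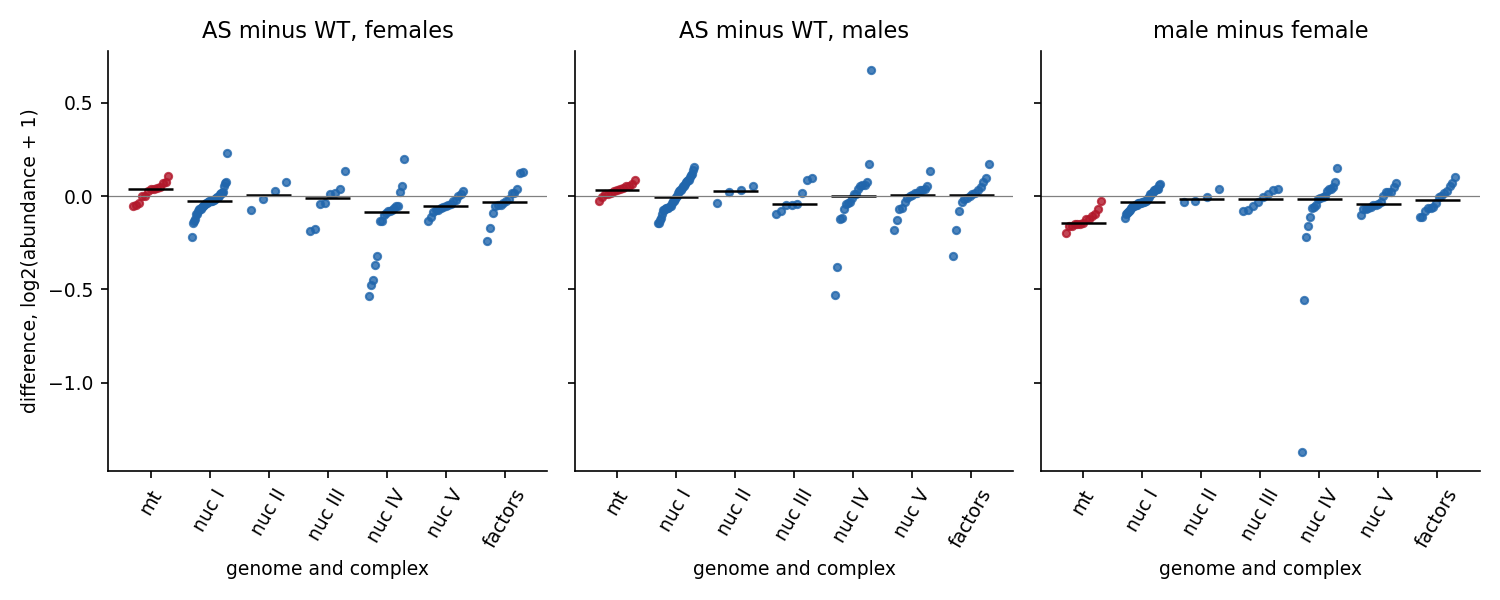
Log2 differences of the 108 genes, by genome and complex, in 3 panels: AS minus WT among females, the same among males, and male minus female, with Cox7a2l and Atp5s among the factors. Points are genes and bars class medians; the mitochondrial genes lie between -0.05 and 0.11 in females and between -0.03 and 0.09 in males, all 13 lie below 0 for male minus female, and none of the genes passed an adjusted p of 0.05.

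In males, again no gene of the pathway passed the test between genotypes (limma, 0 of 108 called, against 0% of all genes). At an unadjusted p under 0.05, 0 genes were higher and 1 lower in AS, against 3.21% of all genes in each direction. Groups did not overlap for 3 genes that were higher and 2 that were lower, against 6.02% and 5.18% of all genes. The 95% interval lay within 1.5-fold for 100 of the 108 genes (92.6%), against 82.7% of all genes.

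Of the 13 mitochondrial genes 11 were higher in AS males, with a median of 0.03, and of the 95 nuclear genes 48 were, with a median of 0.0016. The mitochondrial direction rested on AS male replicate 2: without it 0 of 13 were higher and the median was -0.12, and 71 of 95 nuclear genes were then higher, with a median of 0.04. Without AS male replicate 1, 13 of 13 mitochondrial genes were higher, with a median of 0.13. With library quality weights, which count AS male replicate 2 less, 0 of 13 were higher (median -0.08). With quantile normalization applied again 3 were higher and 6 lower. The 3 AS males thus set the direction by which of them were counted.

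In AS males 3 complex I genes were higher without overlap, but did not pass. Ndufs1 (ENSMUSG00000025968, chromosome 1, 63143596 to 63176833, minus strand), the largest iron-sulfur subunit, was at 6.32, 6.31 and 6.32 in WT females, 6.34, 6.34 and 6.22 in AS females, 6.14, 6.08 and 6.16 in WT males, and 6.23, 6.33 and 6.18 in AS males. It differed by 0.12 ± 0.06 in males and -0.01 ± 0.06 in females. Ndufv2, which carries an iron-sulfur centre of the NADH module, was at 7.12, 7.16 and 7.21 in WT females, 7.34, 7.16 and 7.05 in AS females, 6.97, 7.09 and 7.07 in WT males, and 7.13, 7.24 and 7.17 in AS males. It differed by 0.14 ± 0.07 in males and 0.02 ± 0.07 in females (limma, adjusted p = 0.772 for Ndufs1 and 0.774 for Ndufv2 in males). The accessory subunit gene Ndufa9 differed by 0.10 ± 0.06 in males.

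On the lower side in males the smallest p belonged to Ndufa4l2 (ENSMUSG00000040280, chromosome 10, 127514967 to 127517154, plus strand), with levels of 1.38, 1.39 and 1.23 in WT females, 1.08, 1.25 and 1.44 in AS females, 1.80, 1.66 and 1.38 in WT males, and 1.25, 0.68 and 1.32 in AS males. AS males lay below WT males without overlap, by -0.53 ± 0.20 (limma, unadjusted p = 0.0222, adjusted p = 0.763), at an abundance near the bottom of the table. With an added constant of 0.1 in place of 1 the difference was -0.86, and with 5 it was -0.20. Ndufaf6 was the other gene lower without overlap. The assembly factor gene Ndufaf8 was at 3.52, 3.39 and 3.57 in WT females, 3.42, 2.96 and 3.58 in AS females, 3.32, 3.67 and 3.37 in WT males, and 3.01, 2.91 and 3.48 in AS males, a difference of -0.32 ± 0.18 in males, and there the groups overlapped.

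Over both sexes, 0 of 108 genes passed (limma, against 0% of all genes), with 1 higher and 1 lower at an unadjusted p under 0.05, against 2.77% and 2.58% of all genes. All 13 mitochondrial genes had 95% intervals within 1.5-fold, as did 92.1% of all genes. Among the 13, the lowest bound was -0.24 for mt-Nd2 and the highest 0.32 for mt-Atp8. For mt-Co1 the difference was 0.08 ± 0.09 (95% interval -0.13 to 0.28) and for mt-Nd1 -0.01 ± 0.08 (-0.19 to 0.17). Nuclear genes were higher in 33 of 95 cases, with a median of -0.02 (28 of 95 and -0.02 without WT female replicate 1). Of the nuclear subunits, 16 of 36 were higher in complex I, 3 of 4 in complex II, 2 of 8 in complex III, 3 of 18 in complex IV and 2 of 15 in complex V.

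Abundant nuclear genes had narrow intervals. Atp5b differed by 0.0031 ± 0.05 (95% interval -0.11 to 0.12), Sdha by 0.02 ± 0.04 (-0.07 to 0.10), Sdhb by 0.03 ± 0.06 (-0.11 to 0.16) and Ndufb9 by -0.03 ± 0.05 (-0.15 to 0.09). Ndufa4 was at -0.06 ± 0.06 and Cox8a at -0.09 ± 0.08. The 6 genes whose interval went beyond 1.5-fold were the low isoforms Cox6a2, Cox6b2, Cox7a1, Cox7b2, Cox8b and Ndufa4l2.

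Cox6a2 (ENSMUSG00000030785, chromosome 7, 128205435 to 128206387, minus strand) had the smallest p over both sexes. Besides muscle, this isoform is known from parvalbumin interneurons. Its levels were 3.15, 3.17 and 3.16 in WT females, 2.96, 2.88 and 2.67 in AS females, 3.24, 3.82 and 2.95 in WT males, and 3.04, 3.02 and 2.82 in AS males. All AS females lay below all WT females, and in males the groups overlapped, with WT male replicate 2 the highest of all libraries. The difference was -0.35 ± 0.12 over both sexes, -0.32 ± 0.18 in females and -0.38 ± 0.18 in males (limma, unadjusted p = 0.0155 and adjusted p = 0.893 over both). Without WT male replicate 2 the male difference was -0.14. Of 10 interneuron markers, 10 were lower in AS over both sexes, with a median of -0.10 and 3 at an unadjusted p under 0.05, where 6554 of 13858 genes were lower and 2.58% were lower at that p. Pvalb was at -0.11 ± 0.08. Their part in the Cox6a2 value was not tested.

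Ndufb4 had the smallest p on the higher side over both sexes. Its levels were 4.61, 4.75 and 4.86 in WT females, 5.13, 4.72 and 5.06 in AS females, 4.79, 4.78 and 4.69 in WT males, and 4.78, 4.91 and 5.05 in AS males. The groups overlapped in both sexes, and the difference was 0.19 ± 0.08 (limma, unadjusted p = 0.0300, adjusted p = 0.904), a value that carries the uncertainty about Ndufb4c. Uqcrh was at -0.13 ± 0.06 and Ndufa4l2 at -0.30 ± 0.14 on the lower side.

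No gene of the pathway passed the test of whether the genotype difference itself differed between the sexes (limma interaction, 0 of 108 called, against 0% of all genes). At an unadjusted p under 0.05, 1 gene had the larger value in males and 0 the smaller, against 1.76% and 2.01% of all genes. That gene was Ndufc2, whose difference was 0.33 ± 0.11 larger in males (unadjusted p = 0.0120, adjusted p = 0.987, limma). Of the 95 nuclear genes 62 had the larger value in males, with a median of 0.04, and of the 13 mitochondrial genes 6, with a median of -0.01. Without WT female replicate 1 the counts were 58 and 11, with medians of 0.05 and 0.03, and Ndufc2 was at 0.36 ± 0.12.

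Between the sexes, no gene of the pathway passed either (limma, 0 of 108 called, against 0.0361% of all genes), and at an unadjusted p under 0.05, 0 were higher and 3 lower in males, against 3.9% and 3.02% of all genes. Males and females overlapped for all 108 genes, whereas 0.224% of all genes were higher and 0.0722% lower in males without overlap. All 13 mitochondrial genes were lower in males, with a median of -0.14, a range from -0.20 to -0.02 and adjusted p of 0.752 or more. The direction held without each single library, with at most 1 of 13 higher and medians from -0.22 to -0.08. With quantile normalization applied again 5 of 13 were higher and the median was at 0, with library totals made equal it was -0.11, and with the choroid plexus marker mean as a covariate it was -0.03, with 2 of 13 higher. For nuclear genes 34 of 95 were higher in males, with a median of -0.03. WT female replicate 1, whose Xist was at the male level, counts as female here. Without it 0 of 108 genes passed (limma), 0 of 13 mitochondrial genes were higher in males, with a median of -0.16, and 33 of 95 nuclear genes were, with a median of -0.03.

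Among mitochondrial genes the sex differences were -0.16 ± 0.09 for mt-Co1, -0.16 ± 0.09 for mt-Co3, -0.20 ± 0.12 for mt-Atp8 and -0.15 ± 0.08 for mt-Nd4l. The smallest was that of mt-Nd6, at -0.02 ± 0.09. Of the nuclear genes, Ndufs1 was lower in males, at -0.12 ± 0.04 (limma, unadjusted p = 0.0120, adjusted p = 0.675). The X-linked genes were Ndufa1 at -0.09 ± 0.06, Ndufb11 at -0.07 ± 0.06 and Cox7b at 0.04 ± 0.05, and none of the 3 passed. All 15 choroid plexus markers were lower in males, 8 of them at an unadjusted p under 0.05, and the part of choroid plexus tissue in the sex values was not tested.

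Of the 7 low isoforms of complex IV, Cox8b, Cox7a1 and Cox6b2 had their highest levels in libraries high in choroid plexus markers. Cox8b was at 2.55, 3.61 and 1.02 in WT females, 1.03, 3.45 and 1.35 in AS females, 0.59, 1.02 and 0.67 in WT males, and 0.93, 0.70 and 0.88 in AS males. The 3 libraries with the highest marker means, WT female replicates 1 and 2 and AS female replicate 2, lay between 2.55 and 3.61, and the other 9 between 0.59 and 1.35. The sex difference of Cox8b, -1.37 ± 0.46 (limma, unadjusted p = 0.0116, adjusted p = 0.675), came with 3 high libraries that are all labelled female, among them WT female replicate 1 with its low Xist. Without that library it was -1.33 ± 0.51 (adjusted p = 0.834, limma).

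Cox7a1 was at 2.90, 2.76 and 2.49 in WT females, 2.07, 2.96 and 2.01 in AS females, 2.17, 1.73 and 1.00 in WT males, and 2.16, 2.87 and 1.90 in AS males. The 4 libraries highest in choroid plexus markers lay between 2.76 and 2.96, above all other 8, which lay between 1.00 and 2.49. Its difference was 0.68 ± 0.34 for AS minus WT in males and -0.56 ± 0.24 for male minus female (limma, adjusted p = 0.772 and 0.699). Cox6b2 was at 3.25, 3.72 and 2.69 in WT females, 2.28, 3.45 and 2.32 in AS females, 2.96, 2.90 and 2.36 in WT males, and 2.52, 2.72 and 2.96 in AS males, with the highest 3 values in the same libraries as for Cox8b. All 15 choroid plexus markers were in the table and none was at 0; their summed abundance ran from 201 to 4692 in WT females, 101 to 4464 in AS females, 76.8 to 145 in WT males and 79.6 to 901 in AS males. The remaining 4 low isoforms did not have this order. Cox6a2 ran from 2.88 to 3.17 in the 4 and from 2.67 to 3.82 in the 8, and Cox4i2 from 1.32 to 1.70 and from 0.89 to 1.87. Cox7b2 was at 2.37, its highest level, in WT female replicate 1 and between 0.72 and 1.30 in the other 3 of the 4. Ndufa4l2 ran lower in the 4, from 0.68 to 1.39, than in the 8, from 1.08 to 1.80. The part of these cells in the isoform values was not tested.

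**Figure D5:**
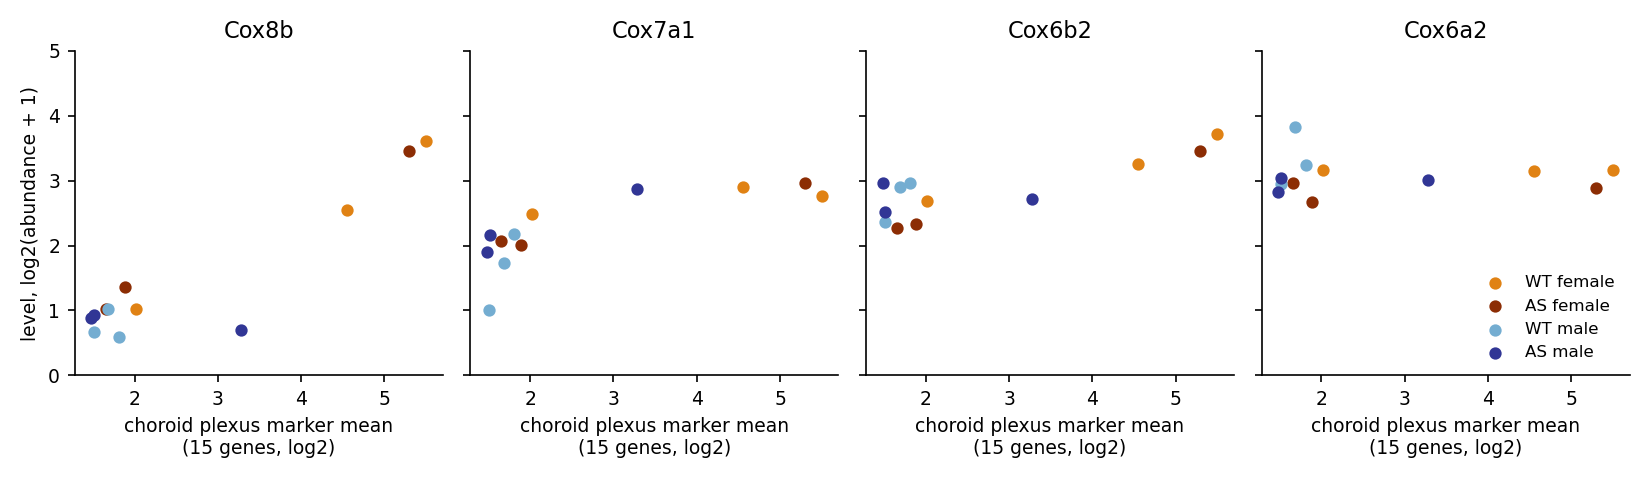
Level of Cox8b, Cox7a1, Cox6b2 and Cox6a2 in each of the 12 libraries, on the log2(abundance + 1) scale, against the mean level of 15 choroid plexus markers. Points are libraries coloured by group. Cox8b, Cox7a1 and Cox6b2 have their highest levels where the markers are high. In AS male replicate 2, however, Cox8b is at 0.70 and Cox6b2 at 2.72, within the range of the 8 libraries low in the markers. Cox6a2 shows no such order.

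Genes that serve the pathway without fitting the symbol rule were also read, as 4 lists. Of 43 tested respiratory chain genes outside the rule, such as cytochrome c and further assembly factors, 16 were higher and 27 lower in AS over both sexes. None passed (limma), and 1 higher and 2 lower had an unadjusted p under 0.05, where 2.77% and 2.58% of all genes did. Coa5, an assembly factor of complex IV, was at 0.14 ± 0.04 (limma, unadjusted p = 0.0039, adjusted p = 0.661), and Atpif1, the inhibitor of ATP synthase, was at -0.17 ± 0.07. Of 32 genes for the upkeep and expression of mitochondrial DNA, 13 were higher and 19 lower. None passed, and 1, Hsd17b10, a subunit of the RNase that trims mitochondrial transcripts, had an unadjusted p under 0.05, at -0.15 ± 0.06. Fastkd3, from a family that acts on mitochondrial RNA, was at 0.14 ± 0.06. Tfam, which packages mitochondrial DNA and starts its transcription, was at 0.03 ± 0.07.

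Of the 20 tricarboxylic acid cycle and pyruvate dehydrogenase genes 9 were higher and 11 lower over both sexes, with none passing and 0 at an unadjusted p under 0.05 (limma). Cs, which encodes citrate synthase, an enzyme often assayed as a measure of mitochondrial content, was at 0.0007 ± 0.04. Of 13 tested regulators of mitochondrial biogenesis 8 were higher and 5 lower, with none passing and 1 in each direction at an unadjusted p under 0.05, against the same 2.77% and 2.58% of all genes. These 2 were Gabpb1, a partner of the ETS factor GABPA, at 0.14 ± 0.06, and Esrra, which encodes ERR alpha, at -0.18 ± 0.08. Ppargc1a, the coactivator that drives the programme in many tissues, was at 0.03 ± 0.09.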

How the data were processed

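RNA-seq libraries of 12 mice were analysed from 1 deposited table. Per the submitters' processing notes, Trimmomatic, Bowtie2 and RSEM were used with GRCm38 (mm10), and no versions are given. The authors deposited log values without zeros, read here as the natural log of an RSEM abundance plus 1. The unit (such as TPM or FPKM), the log base, the filter and the normalization are not given in the sources used here. If the base were 2, each log2 difference would be 0.693 times that printed. In the first library 96.6% of values between 1 and 2 and 100% between 2 and 5 recur in all columns. From 0 to 1 only 16.2% do so, and from 5 to 6, where 29 nuclear genes lie, 15.9%. Above 6, where all 13 mitochondrial and 11 nuclear genes lie, 0% do. The table was thus read as quantile-normalized between 1 and 5. Back-transformed totals were 547558 to 587587. Without counts the depth is unknown, and no counting intervals are given.

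Genes with a mean abundance of at least 1 (13858, with 93 left out) entered limma 3.58.1 (R 4.3.3) on log2(abundance + 1), with 1 mean per group over all 12 libraries, a variance trend and Benjamini-Hochberg adjustment over all genes. The design plan had named a count model in case the table held counts. Exact permutation of 3 mice against 3 cannot go below p = 0.1. The fit was tested on simulated data with independent noise for each gene. Genes that move together, as the mitochondrial ones did, were not simulated, so that test says nothing about them. Symbols and transcripts came from the GENCODE annotation of GRCm38 and promoters from RefSeq (GRCm38.p6). For 76 of 84 promoters the bases after the start were found in a transcript of the gene on the given strand.

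The genes and lists were chosen with earlier results of these data known. Named with all values are the mitochondrial genes, the 2 highest nuclear subunits per complex and, where fewer than 5 genes pass, the 3 with the smallest p per direction. Of each list up to 2 genes with the smallest p are named. Ndufa1, Ndufa8, Ndufa9, Ndufb11, Cox7b, Cox8b, Cox6b2, Tfam, Cs, Ppargc1a and Pvalb were chosen after their values were seen. Alternatives were other added constants and filters, base 2, 3 scalings, quality weights, a robust prior, only the groups compared, leaving out each library, and choroid plexus markers as a covariate or a reason to leave out 4 libraries.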

Additional observations from a re-analysis of the deposited data

How the results depend on the processing

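No gene of the pathway passed an adjusted p of 0.05 in any of the 5 comparisons under any of the 19 or 24 alternatives run for it, which include leaving out each single library. Class medians moved by less than the spread between replicates but some changed sign: the mitochondrial median over both sexes ran from -0.09 to 0.08 (0.03 as reported), in males from -0.12 to 0.13 and in females from -0.06 to 0.09. The nuclear median over both sexes ran from -0.04 to -0.003 and in males from -0.04 to 0.04. Of single genes, 5 values moved by more than their spread. Without the 4 libraries with most choroid plexus RNA, Ndufaf6 and Ndufc2 in females moved to -0.10 and -0.36. That fit set WT female replicate 3 alone against AS female replicates 1 and 3. Both values, and the mitochondrial median of -0.06 in females, thus rest on 1 WT female. Ndufa4l2 in males moved to -0.86 and -0.20 with added constants of 0.1 and 5, and Cox6a2 in males to -0.14 without WT male replicate 2. No paired analysis was possible because the labels carry no replicate numbers, and the numbers used here follow accession order. Depth is unknown, so low isoforms cannot be given a counting error.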
